A study of Mus musculus with 27 samples.

Results

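The 40 genes described here encode parts of the transport and gating machinery of the cilium. They were chosen by name from a list of intraflagellar transport (IFT), BBSome and transition zone genes, and all 40 were found among the 38168 features of the table. They fall into 6 classes: 10 subunits of the IFT-B complex, 5 subunits of the IFT-A complex together with its adaptor Tulp3, 7 BBSome subunits, 3 chaperonin-like BBS genes, 5 motor genes and 9 transition zone genes. Where a symbol had 2 entries (Ift57, Ttc8 and Rpgrip1l), the entry with the higher mean was used.

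A cilium has no ribosomes, so its proteins are made in the cell body and carried in by kinesin motors on trains of IFT-B and IFT-A complexes, and dynein-2 carries the trains back. The BBSome is a coat-like cargo adaptor that moves membrane proteins out of or along the cilium, and the transition zone at the base forms a gate. Most progenitor cells of the embryonic retina carry a primary cilium, whereas photoreceptors enlarge theirs into the outer segment that holds the phototransduction proteins. Inherited defects in many of these genes cause retinal degeneration, in isolation or with kidney, skeletal or brain malformation.

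Whole retinas of wild type C57BL/6J mice were measured by RNA-seq of total RNA at embryonic day 14 (E14, n = 3 libraries), E17 (n = 3), postnatal day 1 (P1, n = 4), P6 (n = 3), P15 (n = 4), P28 (n = 4) and P60 (n = 6), with tissue collected in the light phase. These mice carried no transgene or deletion and received no treatment. By the study's methods, libraries came from pooled embryos or pooled mice, except that 4 of the libraries at P60 came from single mice, and it is not stated which; the labels instead give 3 retinas for every library. Embryonic and P1 pools were of mixed sex and later ones male, so age and sex cannot be told apart in the step from P1 to P6 or in any comparison of mature with embryonic retina. The labels do not tie libraries to litters, so the spread between libraries may include technical variation.

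Levels are given in CPM, the reads of a gene scaled to the total reads of its library. By the step of 1 read in the CPM values, 7076646 to 11330762 reads per library (median 7968785) were counted on features, and 1 read was worth 0.08824 to 0.1413 CPM. A gene with no read in a library could still have a level of up to 0.4239 CPM (3 reads in the shallowest library), and such limits cover counting error only. No member was at 0 in any library. The lowest member was Kif17, with 4 reads in 1 library, and every other member had at least 16 reads in every library. The tissue label was checked with 5 retinal transcription factor genes (Rax, Six3, Pax6, Crx and Otx2), whose summed level was 1480 to 2580 CPM over all libraries. Summed levels of 6 lens genes were 2.63 to 10.1 CPM, and those of 10 retinal pigment epithelium genes were 5.27 to 9.70 CPM at E14, 52.5 to 85.3 CPM at P15 and 15.8 to 61.5 CPM at P60.

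RFX transcription factors, which drive ciliary genes in many animals, bind an inverted repeat known as the X-box. RefSeq promoter windows on GRCm38.p6, from 250 bases before to 50 bases after the start site, were at hand for 36 of the 40 members; Ift80, Ift81, Ift122 and Tmem67 had none. The motif was searched on both strands as GTN, A or G, CC, then 0 to 3 bases, A or G, G, C or T, AAC. It occurred in 6 of the 36 members (16.7%) and in 474 of the 27025 genes with a promoter window (1.75%). Those 27025 genes were not limited to genes measured here. All 6 had it between 100 bases before and 50 bases after a RefSeq start site, where 332 of the 27025 genes (1.23%) did. These 6 sequences are shown because a match this close to the start is uncommon among all genes and is spread here over 4 of the 6 classes. Capitals mark the motif and each line is read on the strand that matched.
Kif17: tcacggagGTTGCCCAGCAACggcgaacg
Tctn1: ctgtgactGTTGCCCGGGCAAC
Tctn2: gaggaccaGTAGCCATGGTAACctccaatc
Ahi1: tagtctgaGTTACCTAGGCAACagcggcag
Ift57: gccctgcgGTTGCCTGGTAACggtgggga
Bbs1: tcccaggcGTCGCCTTGGCAACcagctcag

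The lines for Kif17 (chr4:138262170-138262198, plus strand), Tctn1 (chr5:122264411-122264432, minus strand), Ahi1 (chr10:20952560-20952589, plus strand) and Ift57 (chr16:49699226-49699254, plus strand) are on the strand of the gene, and those for Tctn2 (chr5:124598679-124598708, minus strand) and Bbs1 (chr19:4906605-4906634, plus strand) are on the other strand. The Tctn1, Ahi1 and Ift57 sites also matched on the opposite strand, since the motif is an inverted repeat, and Ift57 held another match further upstream. The Kif17 match lies well inside the GENCODE span of that gene (chr4:138250435-138301967), at a RefSeq start site downstream of the first base of the span. Which start site the retina uses was not tested. A match is a run of letters and not a measured binding site.

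The main comparison set mature retina, averaged over P15, P28 and P60 (n = 14), against embryonic retina, averaged over E14 and E17 (n = 6), on log2(CPM + 1) with limma. Of the 40 members, all of which passed the filter on low values, 23 were higher in mature retina, 9 were lower and 8 did not pass an adjusted p of 0.05. Among all 31760 features tested, 35.0% were higher and 40.4% lower by the same rule. When a change of at least 2-fold was also required, 13 members were higher and 0 lower, beside 14.9% and 16.1% of all features. The median log2 fold change was 0.57 over the members and -0.06 over all features. In 21 members every mature library lay above every embryonic library, and in 4 members (Ift74, Tulp3, Kif3a and Iqcb1) every mature library lay below, beside 17.4% and 23.0% of all features. The other 15 members overlapped. Whole retina cannot tell fewer cells of a type from less RNA per cell.

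**Figure D1:**
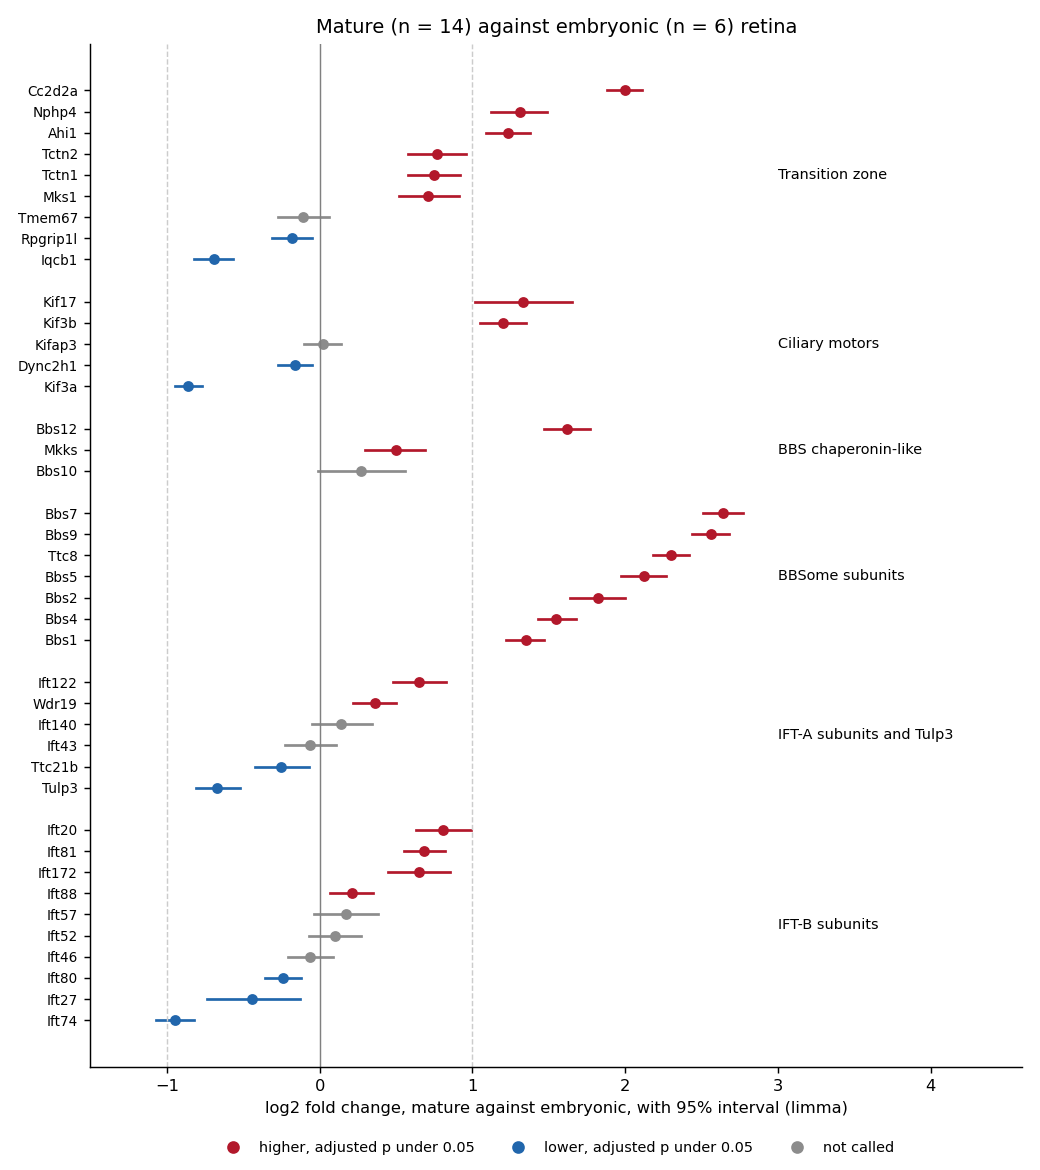
The log2 fold change of each of the 40 members between mature (n = 14) and embryonic (n = 6) retina is plotted on the x axis with its 95% interval from limma, grouped by class, with dashed lines at 2-fold. All 7 BBSome genes lie beyond the 2-fold line, from 1.35 to 2.64, whereas the IFT-B genes lie between -0.95 and 0.81.

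The BBSome was the class in which all members moved one way. All 7 subunits were higher in mature retina, each by more than 2-fold, beside 14.9% of all features, with a median log2 fold change of 2.12. Their summed level was 111 ± 3.83 CPM (SD, n = 3) at E14, 133 ± 1.44 at E17 (n = 3), 155 ± 3.54 at P1 (n = 4), 415 ± 8.33 at P6 (n = 3), 533 ± 16.4 at P15 (n = 4), 514 ± 4.62 at P28 (n = 4) and 550 ± 34.9 at P60 (n = 6). The steepest part of the rise thus fell between P1 and P6, when 7 of 7 subunits rose, beside 18.0% of all features, with a median log2 fold change of 1.42.

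Bbs7, a β-propeller subunit, had the largest change of all members. Its libraries were at 13.0, 14.2 and 13.4 CPM at E14 and at 16.2, 15.4 and 14.3 CPM at E17. They were at 18.3, 20.8, 20 and 17.5 CPM at P1, at 64.7, 60.7 and 58.9 CPM at P6 and at 95.7, 93.4, 95.8 and 82.5 CPM at P15. Libraries at P6 lay above all libraries at P1 and below all libraries at P15. At P60 the lowest was 81.0, the median 98.1 and the highest 112 CPM. Mature exceeded embryonic retina by 2.64 on the log2 scale (limma adjusted p = 1.3e-26, standard error 0.06). On GRCm38, the build of all positions given here, the gene lies on chr3:36573142-36613477 (minus strand).

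Bbs9, which scaffolds the complex, was nearer to its mature mean at P6. Its libraries were at 29.1, 27, 27.8 and 27.9 CPM at P1, at 109, 109 and 112 CPM at P6 and at 127, 126, 113 and 108 CPM at P15. The P6 value was 90.1% of the mature mean for Bbs9 and 64.7% for Bbs7. From P1 to P6 the log2 fold change of Bbs9 was 1.94 (limma adjusted p = 2.8e-17, standard error 0.09), the highest of the 40 members at that step. Bbs9 spans chr9:22475715-22888280 (plus strand).

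The remaining subunits stood at different points of their course at P6. Bbs1, which binds the small GTPase that recruits the BBSome to membranes, had reached 97.2% of its mature mean at P6, with libraries at 67.0, 59.5 and 58.7 CPM, after 33.7, 28.7, 26.9 and 27.9 CPM at P1. Bbs2, on the other hand, had reached 50.9% at P6, with libraries at 18.2, 19.9 and 20.8 CPM, and then stood at 36.0, 32.4, 30.1 and 43.0 CPM at P15. On the log2(CPM + 1) scale its step from P6 to P15 was the highest of the 40 members (log2 fold change 0.81, limma adjusted p = 2.2e-05, standard error 0.14), but with edgeR on reads that of the rare Kif17 was higher (1.30, against 0.91 for Bbs2). For each of these subunits the mature and embryonic libraries did not overlap. The mature against embryonic log2 fold changes were 2.30 for Ttc8, 2.12 for Bbs5, 1.82 for Bbs2, 1.55 for Bbs4 and 1.35 for Bbs1, with standard errors of 0.06 to 0.09. Of these, Bbs4 shares 194 exonic bases with Adpgk on the opposite strand, and whether counting used the strand is not given in the sources used here. Bbs2 lies on chr8:94067954-94098928 (minus strand) and Bbs1 on chr19:4886878-4906628 (minus strand).

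**Figure D2:**
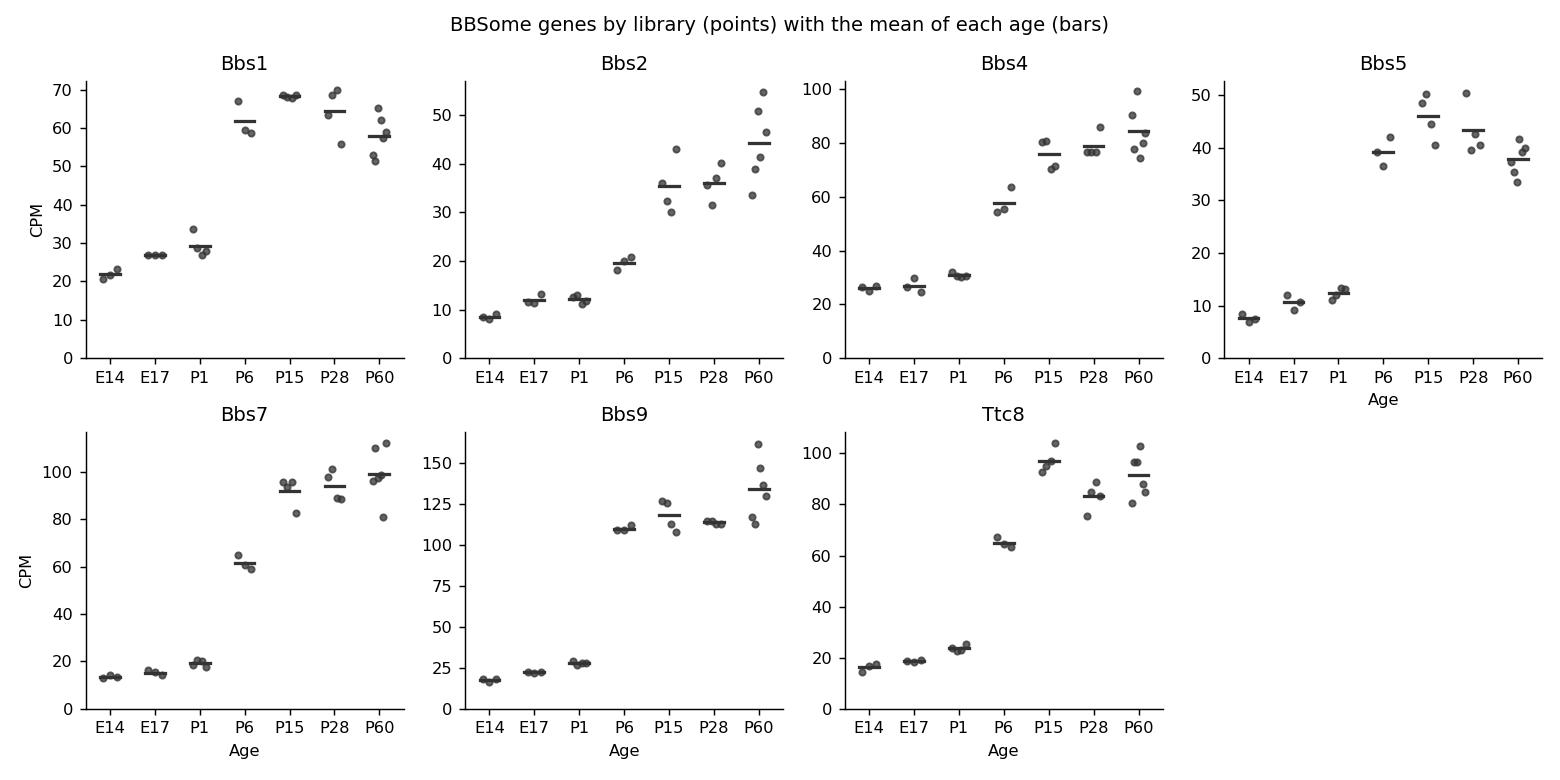
Each panel plots 1 BBSome gene in CPM (y axis, from 0) at the 7 ages (x axis), with a point for each library and a bar for the mean of the age. In Bbs9 the libraries at P6 (109 to 112 CPM) are already near those at P28 (113 to 115 CPM), whereas Bbs2 lies at 18.2 to 20.8 CPM at P6 and at 31.5 to 40.1 CPM at P28.

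Markers of rod photoreceptors also rose over these ages, but more steeply after P6 than the summed BBSome level, which was 415 ± 8.33 CPM (SD, n = 3) at P6 and 533 ± 16.4 (n = 4) at P15. The summed level of 8 rod genes (Nrl, Nr2e3, Gnat1, Sag, Pde6a, Pde6b, Cnga1 and Rcvrn) was 15.4 to 19.5 CPM at E14, 172 to 200 CPM at P1, 2480 to 2940 CPM at P6, 9370 to 9840 CPM at P15 and 11700 to 14000 CPM at P60. That of 8 cell cycle genes was 3110 to 3450 CPM at P1, 97.1 to 128 CPM at P6 and 36.2 to 57.8 CPM at P60. All 8 genes of each list were detected. The part of either in the rise of the BBSome genes was not tested.

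The chaperonin-like proteins Mkks, Bbs10 and Bbs12 help the BBSome assemble. Bbs12 had libraries at 37.4, 32.3, 32.5 and 37.0 CPM at P1, at 79.4, 65.0 and 73.1 CPM at P6 and at 130, 125, 135 and 114 CPM at P15. Both steps passed the test, with log2 fold changes of 1.04 (adjusted p = 7.9e-09) and 0.79 (adjusted p = 2.1e-06) from limma. Mature retina as a whole was higher by 1.62 on the log2 scale (limma adjusted p = 4.7e-19, standard error 0.07), and the libraries did not overlap. Mkks was higher by 0.50 (limma adjusted p = 3.5e-05, standard error 0.10), but its libraries overlapped.

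Bbs10 was not called. It had libraries at 12.4, 10.9 and 7.37 CPM at E14, at 9.71, 10.7 and 8.70 CPM at E17, at 16.2, 10.8, 9.74 and 9.76 CPM at P15 and at 11.6, 10.1, 12.9 and 12.7 CPM at P28. The P60 libraries ran from 9.92 to 23.6 CPM with a median of 12.3, so embryonic and mature libraries overlapped. The 95% interval of the log2 fold change ran from -0.01 to 0.56 (adjusted p = 0.077, limma), and under the alternatives the adjusted p ranged from 0.012 to 0.29, so these data leave room for no change and for a rise of less than 2-fold. Bbs12 (chr3:37312554-37321453, plus strand) shares 32 exonic bases with Cetn4 on the opposite strand, and also 32 with Gm43439 on the same strand. Mkks shares 172 with Slx4ip on the opposite strand and 1124 with 2 gene models on its own strand, so its value is uncertain, and Bbs10 (chr10:111298679-111301727, plus strand) overlaps none.

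Per kilobase of merged exons, a scale that allows for gene length, the levels of the BBSome genes were 2.67 to 4.64 CPM per kb (median 3.19) in embryonic retina and 8.28 to 24.0 CPM per kb (median 17.3) in mature retina. On that scale Bbs12 had the highest mature level of the 40 members (47.1 CPM per kb), and Kifap3, Ahi1, Cc2d2a and Ttc8 followed at 30.1, 28.8, 25.4 and 24.0 CPM per kb. Divided by the longest transcript instead, Bbs12 was again highest (47.2 CPM per kb), and Ahi1 and Ttc8 came next (41.9 and 39.9 CPM per kb). Kifap3 then ranked 7, so the order below Bbs12 depended on the length used. In embryonic retina Kif3a, Kifap3 and Ift74 had led, at 40.4, 29.6 and 26.9 CPM per kb, with Kif3a first by either length. By the longest transcript, Ift74 (33.4) and Iqcb1 (31.2) stood above Kifap3 (29.6 CPM per kb). Kif17 was lowest in both, at 0.176 and 0.809 CPM per kb.

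The IFT-B complex showed no common direction. Of its 10 genes 4 were higher (Ift20, Ift81, Ift172 and Ift88), 3 were lower (Ift74, Ift27 and Ift80) and 3 did not pass the test (Ift46, Ift52 and Ift57). Among all features 35.0% were higher and 40.4% lower. The median log2 fold change of the 10 genes was 0.14. The summed level of the 10 genes was 290 ± 2.77 CPM (SD, n = 3) at E14 and 302 ± 11.2 CPM (n = 6) at P60, and the mean of each age lay between 284 and 304 CPM. The smaller changes depended on the settings: Ift88 (0.21), Ift27 (-0.44) and Ift80 (-0.24) each lost the call under at least 1 alternative.

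Ift20, the subunit that also sits at the Golgi, where vesicles bound for the cilium form, had the largest rise of the class. At E14 the libraries were at 11.4, 7.81 and 8.74 CPM, followed by 13.3, 14.3 and 15.3 CPM at P6 and at 19.7, 20, 20.1 and 19.5 CPM at P15. Every mature library lay above every embryonic library, and the log2 fold change reached 0.81 (limma adjusted p = 1.1e-09, standard error 0.09). Ift20 lies on chr11:78536361-78541737 (plus strand).

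Ift74, which with Ift81 forms the tubulin-binding module of the train, had the largest fall. It stood at 69.3, 69.3 and 77.4 CPM in the libraries of E14, at 71.0, 61.3, 64.1 and 64.8 CPM at P1, at 48.0, 43.9 and 46.3 CPM at P6 and at 33.8, 35.2, 39.8 and 37.6 CPM at P28. At P60 the lowest was 27.1, the median 32.0 and the highest 35.7 CPM. From embryonic to mature retina it changed by -0.95 on the log2 scale (limma adjusted p = 4.8e-15, standard error 0.06). Its partner Ift81 was higher in mature retina, by 0.68 (limma adjusted p = 6.4e-11, standard error 0.07), and in neither gene did embryonic and mature libraries overlap. The positions are chr4:94614491-94693229 (plus strand) for Ift74 and chr5:122550204-122614518 (minus strand) for Ift81.

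Ift27, a small GTPase-like subunit that links the train to BBSome export, was the lowest of the class in CPM. At P1 the libraries were at 6.75, 5.55, 4.41 and 5.80 CPM, and at P6 they were at 2.40, 3.35 and 3.58 CPM. The log2 fold change at this step was -0.69 (limma adjusted p = 0.017, standard error 0.23), and the groups did not overlap. The call was lost without P1 replicate 1 (adjusted p = 0.056, limma) and without P6 replicate 1 (adjusted p = 0.11, limma). Embryonic (4.40 to 6.62 CPM) and mature (2.10 to 6.29 CPM) libraries overlapped. Ift27 lies on chr15:78159463-78174107 (minus strand).

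In the IFT-A class 2 genes were higher (Ift122 and Wdr19), 2 were lower (Tulp3 and Ttc21b) and 2 did not pass the test (Ift43 and Ift140). Among all features 35.0% were higher and 40.4% lower. Ift122, a core subunit, had libraries at 33.2, 30.9, 36.6 and 31.7 CPM at P1 and at 59.6, 51.7 and 50.5 CPM at P6. Its level in mature libraries was 47.0 to 80.1 CPM with a median of 54.6, all above the embryonic libraries at 32.8 to 39.3 CPM. This difference amounted to a log2 fold change of 0.65 (limma adjusted p = 4.0e-08, standard error 0.09). The gene lies on chr6:115853470-115926699 (plus strand).

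Tulp3, an adaptor that loads membrane receptors onto IFT-A, took the opposite course. Its libraries were at 32.8, 33.0 and 32.5 CPM at E14 and at 43.3, 50, 39.6 and 45.8 CPM at P1, and then at 26, 32.4 and 28.5 CPM at P6 and at 18.8, 19.5, 15.3 and 18.0 CPM at P28. The peak was therefore at P1, with all 4 libraries above those of every other age. The fall from P1 to P6 had a log2 fold change of -0.61 (adjusted p = 4.9e-05), and that from P15 to P28 one of -0.48 (adjusted p = 0.0062), both from limma. Tulp3 was the only member called between P15 and P28, a step at which 1.14% of all features rose and 1.58% fell. Ttc21b, a subunit needed for the return trip, had libraries at 33.0, 38.1 and 35.9 CPM at E14, at 40.5, 38.9 and 38.2 CPM at P6 and at 32.4, 34.1, 31.3 and 27.4 CPM at P15. Its step from P6 to P15, at -0.32, did not pass the test (adjusted p = 0.061, limma). From embryonic to mature retina Ttc21b (-0.25) was called in CPM but not with median-of-ratios scaling (adjusted p = 0.062, limma). Tulp3 lies on chr6:128321161-128355851 (minus strand) and Ttc21b on chr2:66184327-66256617 (minus strand).

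Among the motors, the genes of the kinesin-II complex moved apart. Kif3a and Kif3b encode its motor subunits, which pair with each other, and Kifap3 encodes the cargo-binding subunit. Kif3a had libraries at 140, 138 and 142 CPM at E14, at 150, 156, 156 and 150 CPM at P1, at 91.4, 96.4 and 96.4 CPM at P6 and at 79.4, 77.1, 80.8 and 75.3 CPM at P28. At P60 the lowest was 66.5, the median 74.9 and the highest 78.5 CPM. Every library from P6 on lay below every library up to P1. Kif3b had libraries at 38.4, 33.5 and 36.3 CPM at E14, at 43.5, 44.1, 44.3 and 37.7 CPM at P1, at 70.8, 77.3 and 77.5 CPM at P6 and at 76.5, 83.3, 87.3 and 76.9 CPM at P28. At P60 the lowest was 74.2, the median 95.5 and the highest 126 CPM.

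Both genes changed between P1 and P6. Kif3a fell (log2 fold change -0.69, limma adjusted p = 1.5e-09, standard error 0.07) and Kif3b rose (log2 fold change 0.81, limma adjusted p = 5.9e-07, standard error 0.11). The ratio of Kif3b to Kif3a CPM within a library was 0.277 ± 0.0176 (SD, n = 4) at P1, 0.794 ± 0.0167 (n = 3) at P6 and 1.32 ± 0.227 (n = 6) at P60. Per kilobase of exon the mean levels were 40.4 (Kif3a) and 6.72 (Kif3b) CPM per kb in embryonic retina and 22.2 and 15.8 CPM per kb in mature retina, so Kif3a stayed the higher of the pair on that scale. Kifap3 also rose from P1 to P6 (log2 fold change 0.32, limma adjusted p = 0.0044, standard error 0.09), and its mean was highest at P6, at 146 ± 3.81 CPM (SD, n = 3). Between mature and embryonic retina Kifap3 was not called, with a 95% interval of the log2 fold change from -0.10 to 0.14 (adjusted p = 0.76, limma). Kif3a lies on chr11:53567379-53601967 and Kif3b on chr2:153291413-153333390, both on the plus strand.

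**Figure D3:**
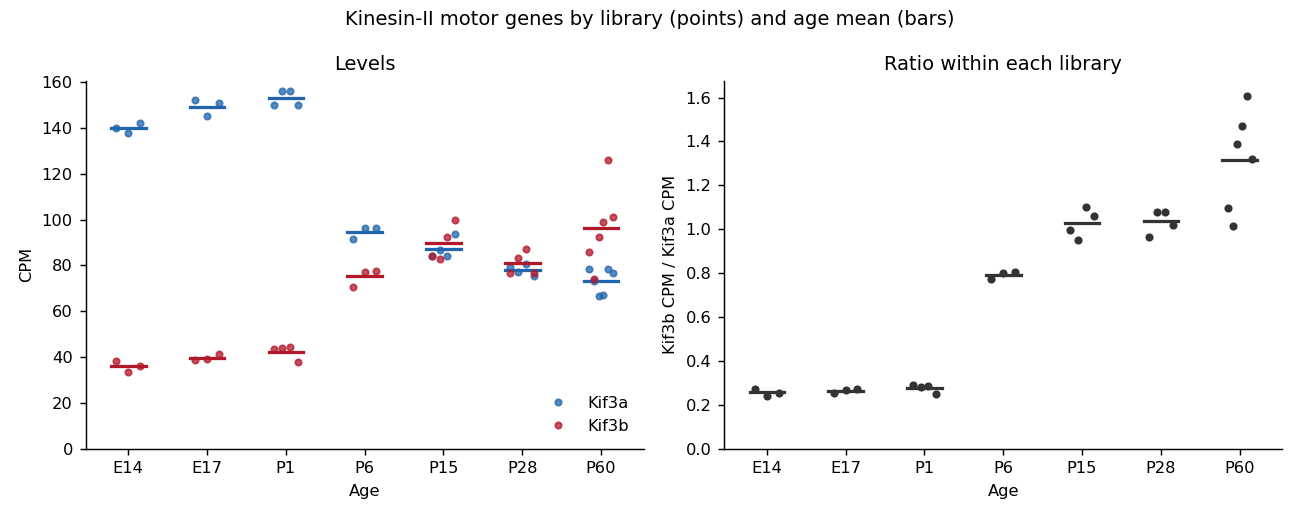
The left panel plots Kif3a (blue) and Kif3b (red) in CPM by library (points) with the mean of each age (bars), and the right panel plots the ratio of Kif3b to Kif3a CPM in each library. The ratio lies at 0.251 to 0.290 at P1 and at 0.774 to 0.804 at P6, with no library between.

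Kif17, a second kinesin of the cilium, was rare throughout. Levels were 0.736, 0.630, 0.565 and 0.473 CPM at P1, at 1.41, 0.649 and 1.52 CPM at P6 and at 4.02, 2.77, 2.56 and 1.65 CPM at P15. At P60 the lowest was 3.02, the median 5.20 and the highest 6.78 CPM. Mature retina was higher by 1.33 on the log2 scale (limma adjusted p = 3.3e-09, standard error 0.15). The pseudocount of 1 compresses a gene this low, and the ratio of the age means was 4.6. Kif17 (chr4:138250435-138301967, plus strand) shares 74 exonic bases with Sh2d5 on the same strand. Dync2h1, the dynein-2 heavy chain, lay at 202 to 237 CPM in embryonic and at 162 to 229 CPM in mature libraries, and its call (log2 fold change -0.16, adjusted p = 0.0091, limma) was lost with median-of-ratios scaling (-0.08, adjusted p = 0.24).

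The transition zone genes among the members mostly rose, whereas 35.0% of all features were higher and 40.4% lower in mature retina. This did not extend to 14 further transition zone genes, of which 5 were higher and 3 lower, with a median log2 fold change of 0.11. Of 9 genes, 6 were higher in mature retina (Cc2d2a, Nphp4, Ahi1, Tctn2, Tctn1 and Mks1), 2 were lower (Iqcb1 and Rpgrip1l) and Tmem67, a membrane protein of the Meckel syndrome module, did not pass the test. The median log2 fold change was 0.75, and their summed level was 362 ± 4.34 CPM (SD, n = 3) at E14, 398 ± 5.67 (n = 4) at P1, 677 ± 38.5 (n = 4) at P15 and 632 ± 52.8 (n = 6) at P60. Rpgrip1l (-0.18) was called in CPM but not with median-of-ratios scaling (adjusted p = 0.16, limma). Tctn1 shares 2113 exonic bases with genes on the opposite strand, Hvcn1 among them, so its value is uncertain.

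Cc2d2a, a coiled-coil protein required for vesicles to fuse at the base of the photoreceptor cilium, had the largest rise of the class. Levels were 38.8, 42.3 and 38.5 CPM at E14, at 62.8, 58.6, 62.0 and 59.6 CPM at P1, at 118, 119 and 115 CPM at P6 and at 176, 191, 204 and 230 CPM at P15. At P60 the lowest was 139, the median 151 and the highest 168 CPM. It was called at each of 3 steps in turn, from E17 to P1 (log2 fold change 0.44, adjusted p = 0.00065), from P1 to P6 (0.94, adjusted p = 1.8e-10) and from P6 to P15 (0.76, adjusted p = 2.5e-08), all from limma. It lies on chr5:43662346-43740972 (plus strand).

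Ahi1, the jouberin gene, and Nphp4, a scaffold of the nephronophthisis module, rose by log2 fold changes of 1.23 (limma adjusted p = 1.4e-16, standard error 0.07) and 1.31 (limma adjusted p = 2.8e-14, standard error 0.09). In both, every mature library lay above every embryonic library: Ahi1 lay at 75.7 to 96.6 CPM in embryonic and at 170 to 265 CPM in mature libraries. Iqcb1, a calmodulin-binding partner of other gate proteins, took the opposite course. Its libraries were at 89.9, 88.0 and 87.3 CPM at E14, at 77.0, 74.1 and 71.1 CPM at P6, at 55.5, 57.2, 56.6 and 49.5 CPM at P15 and at 60.9, 57.3, 59.4 and 56.2 CPM at P28. Unlike Kif3a and Tulp3, it was not called between P1 and P6 and fell from P6 to P15 (log2 fold change -0.43, limma adjusted p = 0.00053, standard error 0.09). Iqcb1 lies on chr16:36828385-36872721 (plus strand).

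**Figure D4:**
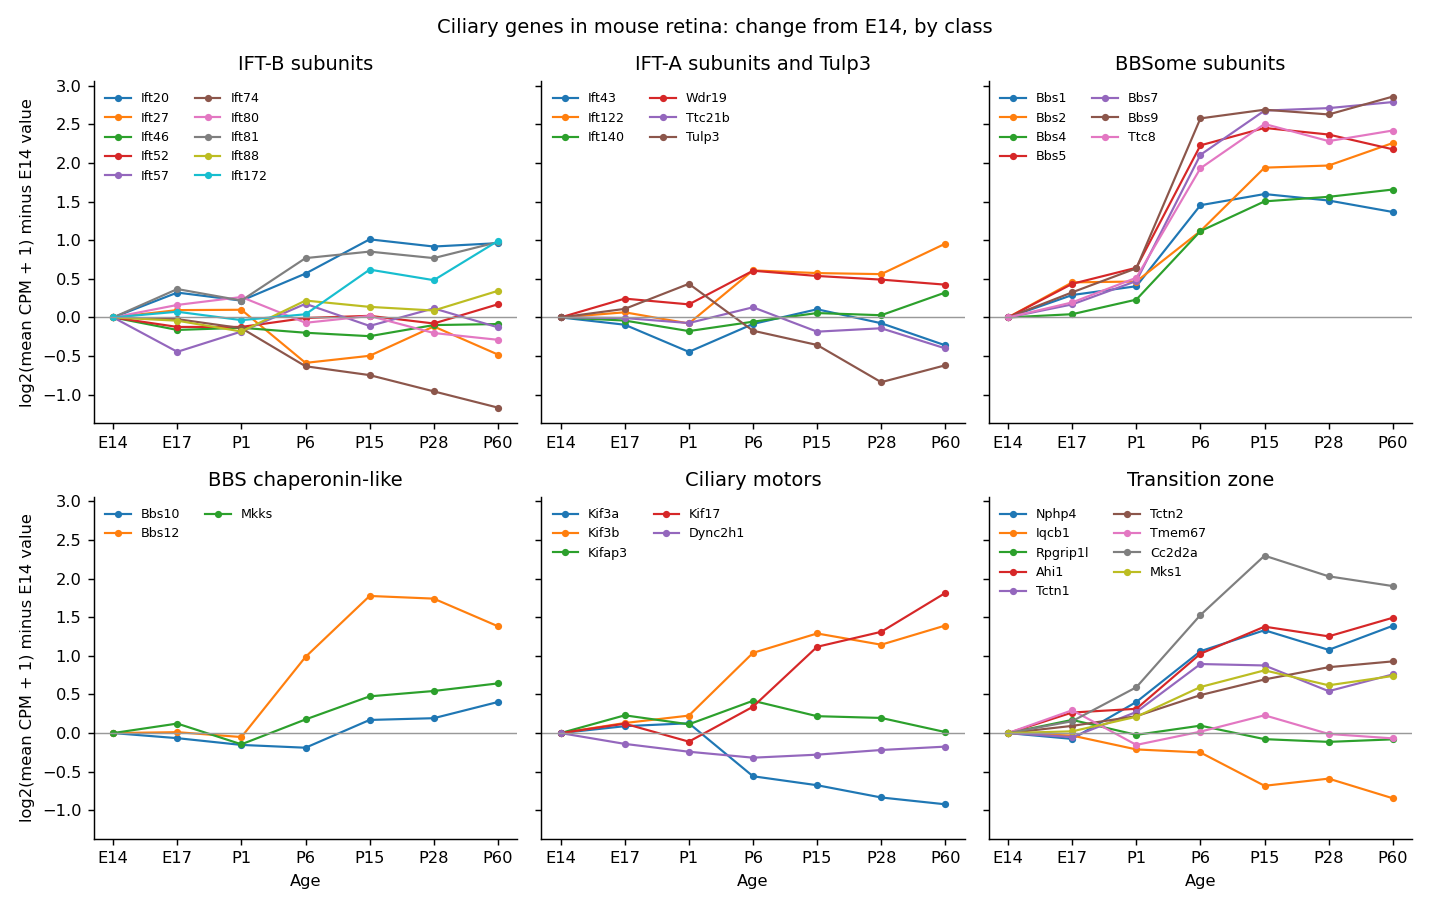
Lines trace each member's log2(mean CPM + 1) minus its value at E14 (y axis) over the 7 ages (x axis), in a panel for each class. The BBSome panel rises in all 7 genes between P1 and P6, whereas the IFT-B, IFT-A and motor panels hold genes that rise and genes that fall.

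Over all members, the step from P1 to P6 held the most calls, with 21 higher and 5 lower (Ift27, Kif3a, Tulp3, Ift74 and Ift80), beside 18.0% and 20.4% of all features. From P6 to P15, 10 were higher and 1 (Iqcb1) was lower, beside 14.4% and 19.0%. The steps from E14 to E17 (4 higher and 0 lower, beside 7.56% and 3.02%) and from E17 to P1 (5 higher and 1 lower, beside 5.77% and 3.43%) held few, and these counts varied with single libraries. Of the 13 members that were at least 2-fold higher in mature retina, 11 had their largest step between P1 and P6 and 2 between P6 and P15. The step from P1 to P6 also held the most calls over all features, and the matching share of features was not counted. The mean was highest at P60 in 17 of the 40 members, at P15 in 8, at P6 in 5, at P1 in 4, at E17 in 2 and at E14 in 4. In 20 members the highest and lowest age means differed by less than 2-fold. The shares of all features for these counts were not taken. A peak age is a rank of means and not a tested difference, and only Ift122 and Ift172 were called higher at P60 than at P28.

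Between P28 and P60 Ift122 and Ift172 were higher and Bbs12 and Iqcb1 lower, beside 4.80% and 8.11% of all features. The libraries of P60 did not move as a group. Ift122 had libraries at 48.5, 50.7, 53.7 and 55.6 CPM at P28, while at P60 replicates 1 and 2 lay at 56.1 and 47.9 CPM and the other 4 at 74.2 to 80.1 CPM. Bbs12 was at 120 and 112 CPM in replicates 1 and 2 and at 79.0 to 93.8 CPM in the other 4, against 114 to 128 CPM at P28. The 4 calls became 13 without P60 replicate 1 and 13 without replicate 2, and 0 when only the ages compared were fitted. Calls over all 31760 features moved the same way, so these counts are not particular to the members. They went from 1524 higher and 2576 lower to 2606 and 4818 without replicate 1 and 2841 and 4675 without replicate 2. With only the ages compared, 6 features were higher and 1 was lower. The share of all calls at this step that were higher was 37.2% in CPM, 51.6% with median-of-ratios scaling (members 4 higher, 1 lower) and 60.8% with edgeR (members 6 higher, 1 lower), so its direction depended on the scaling. The median coefficient of variation of the members was 13.7% at P60 and 6.10% to 8.85% at the other ages. The pools and single mice of this age cannot be told apart here, and their part was not tested.

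**Figure D5:**
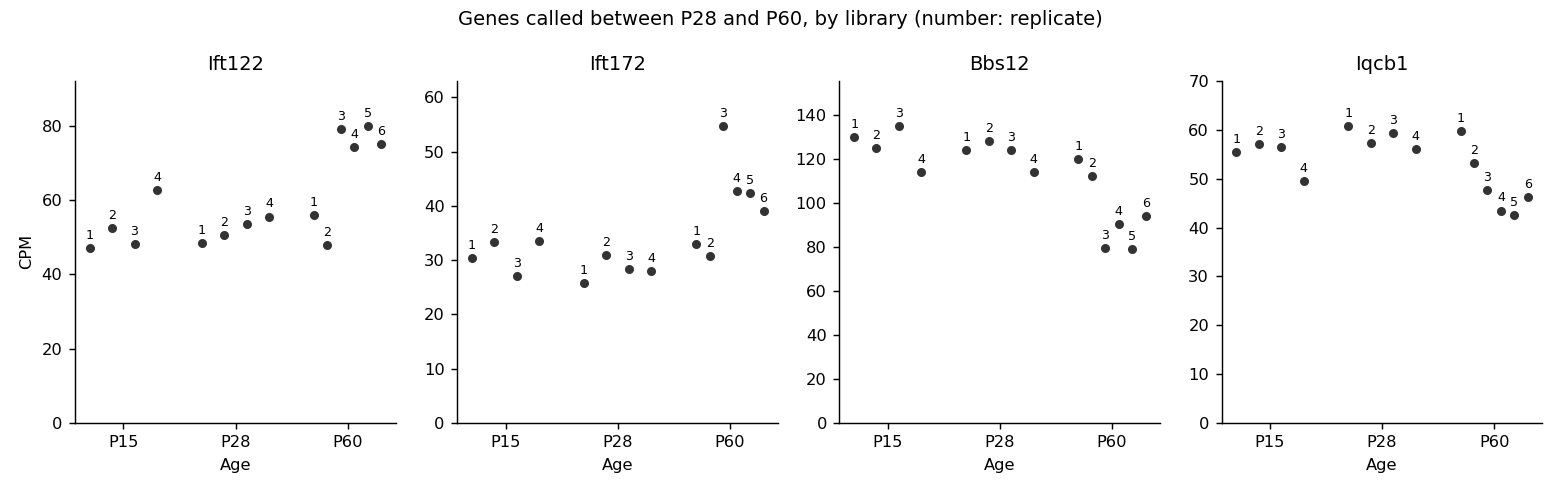
The 4 members called between P28 and P60 are plotted in CPM (y axis, from 0) by library at P15, P28 and P60, with replicate numbers beside the points. In each gene replicates 1 and 2 of P60 lie nearer to the P28 libraries than the other 4 libraries do, as in Bbs12 with 120 and 112 against 79.0 to 93.8 CPM.

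The other genes of the same machinery also moved in both directions. Of 31 that were not members, 14 were higher in mature retina, 4 lower and 13 not called, with a median log2 fold change of 0.21. By the same rule 35.0% of all features were higher and 40.4% lower, which is the background for each list below. Among 4 BBS-related genes all were higher, led by Arl6, the GTPase that recruits the BBSome, whose mean was 17.8 ± 0.974 CPM (SD, n = 3) at E14, 103 ± 1.62 (n = 3) at P6 and 72.7 ± 15.9 (n = 6) at P60 (log2 fold change 2, limma adjusted p = 1.1e-20, standard error 0.08). The smallest was that of Bbip1, at 0.29. Among 9 further IFT genes 2 were higher, 1 was lower and 6 were not called, from -0.39 for Ift22 to 1.08 for Ttc30b, whose close copies Ttc30a1 and Ttc30a2 make its reads uncertain. Among 4 further dynein-2 genes 3 were higher, led by the intermediate chain gene Wdr60 at 1.89, and Dync2li1 was not called (-0.11). Among 14 further transition zone genes 5 were higher, 3 were lower and 6 were not called. The highest was Cep290, which links membrane and microtubules in the gate, with means of 76.8 ± 5.77 CPM (SD, n = 3) at E14 and 413 ± 12.8 CPM (n = 3) at P6 and a log2 fold change of 1.76 (limma adjusted p = 7.1e-24, standard error 0.05). The lowest was the kinase gene Nek8 at -1.16 (limma adjusted p = 2.3e-08, standard error 0.15).

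The RFX and FOXJ1 factors were listed as families, and only some of them are known to control ciliary genes. Of the 8, 7 were tested and 4 were higher and 3 lower, beside 35.0% and 40.4% of all features. Rfx5 had the largest rise (log2 fold change 1.78, adjusted p = 2.1e-17) and Rfx7 the largest fall (-1.13, adjusted p = 2.7e-20) by limma. Rfx3, named after its values were seen because it is best known for ciliary genes, was at 259 ± 8.45 CPM (SD, n = 3) at E14, 242 ± 11.3 (n = 3) at P6 and 125 ± 21.3 (n = 6) at P60, and changed by -0.92 on the log2 scale (limma adjusted p = 1.9e-13). Foxj1, the regulator of motile cilia, lay at 0.90 to 2.80 CPM in embryonic and at 1.13 to 6.32 CPM in mature libraries, which overlapped. The summed level of 11 motile axoneme genes was 108 to 112 CPM at E14, 288 to 319 CPM at P15 and 199 to 235 CPM at P60. Of the 6 members with an X-box match shown above, 5 were higher in mature retina (Bbs1, Kif17, Ahi1, Tctn1 and Tctn2) and Ift57 was not called. Of the 30 whose window held none, 16 were higher, 8 lower and 6 not called. Among all features 35.0% were higher and 40.4% lower, and the value of Tctn1 is uncertain, as stated above. Whether the motif goes with a rise was not tested. The 6 matching genes did not share 1 course: Bbs1 was at 97.2% of its mature mean at P6 and Kif17 at 32.2%.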

How the data were processed

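Retinal RNA was sequenced by the authors as single-end reads of 50 bases, aligned to GRCm38 with STAR (per the labels and the methods), and deposited as CPM for each feature and library. The annotation and the use of strand in counting are not given in the sources used here. All CPM values were whole multiples of 1 read (100% within 0.1 of a whole read), which gave the reads per library; for E14 replicate 1 this step lies near 0.1 CPM and cannot be judged. The members and lists were chosen with earlier results of these data known.

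The 31760 features that reached 1 CPM in 3 or more of the 27 libraries were fitted on log2(CPM + 1) with limma 3.58.1 (trend, two-sided) in R 4.3.3 with age as the factor, and p-values were Benjamini-Hochberg adjusted over all of them and called under 0.05. Values by library are given for the highest and lowest member of each class. They are also given for the 2 highest and 2 lowest at the steps from P1 to P6 and P6 to P15. Kif3b, as the motor partner of Kif3a, was shown outside this rule with its values known. For genes outside the members, the highest and lowest of each list were named, and Rfx3 and Foxj1 were added. One retinal marker gene is not reported here. Alternatives were edgeR 4.0.16 on recovered reads, other scaling, pseudocount, filters, groupings, a replicate block and single libraries left out. The fits were tested on simulated data. Positions are those of GENCODE M21.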

Additional observations from a re-analysis of the deposited data

Results flagged for a closer look

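Of 160 groups of 4 to 6 libraries examined (40 members at 4 ages), 8 held a library that stood apart by Dixon's criterion, and chance alone gives about 1 in 20. These were Ift27 in P60 replicate 3 (6.27 CPM, the others 2.10 to 3.66), Ift52 in P28 replicate 4 (21.6 CPM, the others 17.6 to 17.9), Bbs4 in P28 replicate 4 (85.9 CPM, the others 76.6 to 76.9), Bbs10 in P15 replicate 1 (16.2 CPM, the others 9.74 to 10.8) and Bbs10 in P60 replicate 5 (23.6 CPM, the others 9.92 to 13.5). The others were Kif3b in P1 replicate 4 (37.7 CPM, the others 43.5 to 44.3), Kifap3 in P15 replicate 4 (110 CPM, the others 131 to 136) and Tctn1 in P28 replicate 3 (41.8 CPM, the others 33.7 to 34.4). No library was named more than 2 times.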

How the results depend on the processing

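In the comparison of mature with embryonic retina, 22 of the 23 higher and 4 of the 9 lower calls (Ift74, Tulp3, Kif3a and Iqcb1) held under every alternative run, with pseudocount, filter, scaling, tool, grouping and single libraries varied (Ift27 and Kif17 dropped out at a mean CPM of at least 10). The higher call lost was Ift88, with P60 left out or E14 as the only embryonic age. A minimum log2 fold change of 0.5 in place of 1 gave 24 members (20 higher and 4 lower) in place of 13 higher and 0 lower. The share of all features at that minimum was not counted. Among genes not called, the sign turned for Ift46 (0.01 with median-of-ratios scaling, 0.04 with edgeR and 0.05 with edgeR without E14 replicate 1), Ift43 (0.01, 0.03 and 0.05 in the same order, and 0.07 with P60 left out), Ift57 (-0.05 with E14 as the only embryonic age) and Tmem67 (0.02 with edgeR without E14 replicate 1, and 0.04 with E14 as the only embryonic age). The edgeR fit without E14 replicate 1 was chosen after seeing the data.

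Counts at the small steps depended on the setting. Between E14 and E17 the 4 calls became 1 with median-of-ratios scaling, 1 with edgeR, 2 with edgeR without E14 replicate 1, 9 when only the ages compared were fitted, and 0 to 3 with single libraries left out (0 without E14 replicate 2 or E17 replicate 3). Between E17 and P1 the 6 calls became 2 under each of the first 3 settings, and 2 to 5 with single libraries left out (2 without E17 replicate 2 or 3). Between P15 and P28 the 1 call became 2 at a mean CPM of at least 10, 2 with only the ages compared, and 1 to 2 with single libraries left out (2 without P15 replicate 1 or P28 replicate 3). Between P28 and P60 the 4 calls became 8 at a mean CPM of at least 10, 7 with edgeR, 0 with only the ages compared and 1 to 13 with single libraries left out (1 without P28 replicate 1 or 2). Over all features, 1524 higher and 2576 lower calls at this step became 6 and 1 with only the ages compared. The cause was not tested. Replicate numbers did not pair the libraries (correlations of same-numbered libraries from -0.129 to 0.167 over 69 pairs, 3 above 0.1), and with the number as a replicate block the 4 calls between P28 and P60 became 0. Over all features that block left 366 higher and 663 lower at this step.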
